A study of Homo sapiens with 6 samples.

Results

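The genes described are the 62 protein-coding genes of the table that carry the vacuolar protein sorting (VPS), charged multivesicular body protein (CHMP), exocyst complex component (EXOC1 to EXOC8) or component of oligomeric Golgi complex (COG1 to COG8) symbols. They were taken by symbol alone from 19951 protein-coding genes and 58735 genes in all, so no measured value chose them. All 62 passed the filter on low counts. Messenger RNA was measured by RNA-seq in 6 libraries of RPE-1 cells, an immortalised human retinal pigment epithelial line. All 6 libraries came from cells with GFP-tagged CETN2, which marks centrioles. The cells also carried PLK4, the kinase that starts centriole duplication, under doxycycline-inducible control through rtTA. PLK4 was induced with 1 µg/mL doxycycline in every library. In the siControl group, 3 libraries came from cells given a scramble siRNA, and in the siSON group 3 libraries came from cells given an siRNA against SON. The controls therefore carry the PLK4 induction too, and no library without it was analysed here. Whether the replicates came from separate cultures is not stated, so p-values measure only the spread between these libraries, which may be technical. The comparison addresses how loss of SON, a nuclear speckle protein that acts in splicing and transcription, alters mRNA levels in cells with PLK4 induced. Centriole number is not given for these libraries.

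Most of these genes build large protein complexes that sort membrane proteins or hold vesicles at their target membrane. ESCRT complexes gather ubiquitinated receptors on endosomes, bud vesicles inward and cut membrane necks, also at the end of cell division and in nuclear envelope repair. Retromer and retriever carry receptors back out of endosomes. HOPS and CORVET tether late and early endosomes before fusion, GARP and EARP tether vesicles returning to the Golgi or to recycling endosomes, COG tethers vesicles within the Golgi, and exocyst tethers secretory vesicles at the plasma membrane. Many work as assemblies with fixed numbers of subunits, and several have paralogous subunits that can replace one another.

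The siControl libraries held 58917762 to 69764836 counts and the siSON libraries 54572365 to 62723275. Levels are given as CPM, read counts per 1000000 of the normalised library size, and 3 counts correspond to 0.0401 to 0.0590 CPM. SON itself, the targeted gene (ENSG00000159140; GRCh38 chromosome 21, 33542618-33577481, plus strand, 12 exons in the reference transcript), was measured at 295, 313 and 284 CPM in the siControl libraries and at 67.9, 69.9 and 65.0 CPM in the siSON libraries. It fell to 22.8% of control (log2 fold change -2.14, SE 0.057, edgeR adjusted p = 6.78e-10). Of the genes checked as markers of RPE-1 cells, KRT8, KRT18, VIM, CAV1, OTX2, MITF and BEST1 were detected in every library. BEST1 was at means of 8.13 CPM in siControl and 12.5 CPM in siSON. Other markers of pigment epithelium were lower. RPE65 was at 0.258 CPM or less, RLBP1 at 0.0936 CPM or less and TYR at 0 in all libraries. PMEL was at means of 2.06 CPM in siControl and 0.200 CPM in siSON. Of 12 markers of other cell types, 7 stayed under 1 CPM in every library, and their sum was 99.2 to 104 CPM in siControl and 38.9 to 42.7 CPM in siSON, mostly from the neuronal gene SYT1 (means 92.0 and 30.4 CPM). Whether that fall bears on the results was not tested. In bulk RNA, fewer cells with an mRNA and less of it per cell cannot be told apart.

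Of the 62 genes, 50 (80.6%) passed an adjusted p of 0.05 in edgeR's quasi-likelihood test, beside 71.7% of the 16591 genes tested in the whole table and 77.4% of the 13008 protein-coding genes among them. Of these, 31 were higher in siSON, where 35.2% of all genes tested and 40.3% of protein-coding genes were. The other 19 were lower, where 36.5% of all genes tested and 37.1% of protein-coding genes were. The split was 26 higher and 24 lower when libraries were scaled by total counts alone, which moves the median log2 fold change of all genes from -0.03 to -0.22; each log2 fold change below is relative to the main scaling. The siControl and siSON libraries did not overlap for 50 of the 62, beside 75.1% of all genes tested. A change of at least 2-fold was found for 10 (16.1%), beside 29.3% of all genes tested and 27.3% of protein-coding genes. VPS33A, VPS54, COG7, VPS26C and COG2 rose at least 2-fold (8.72% of all genes and 8.62% of protein-coding genes did). VPS9D1, CHMP5, VPS72, VPS16 and VPS51 fell at least 2-fold (20.5% of all genes and 18.7% of protein-coding genes did). With library size alone this was 3 higher and 7 lower, as VPS26C and COG2 rose by less (0.84 each on the log2 scale) and VPS11 and EXOC7 passed 2-fold (-1.03 and -1.10), and with cyclic loess it was 4 and 6, without VPS26C (0.88) and with EXOC7 (-1.17). Changes in these genes were thus about as frequent as in the table at large, and changes of at least 2-fold less frequent by count; neither difference was tested. The median log2 fold change of the 62 was 0.15, with a range of -2.01 to 1.93, beside -0.03 over all genes tested and 0.03 over protein-coding genes. That difference depended on the scaling. With cyclic loess the median of the 62 was 0.034, beside 0.038 over all genes tested. With library size alone it was -0.048, beside -0.22.

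**Figure D1:**
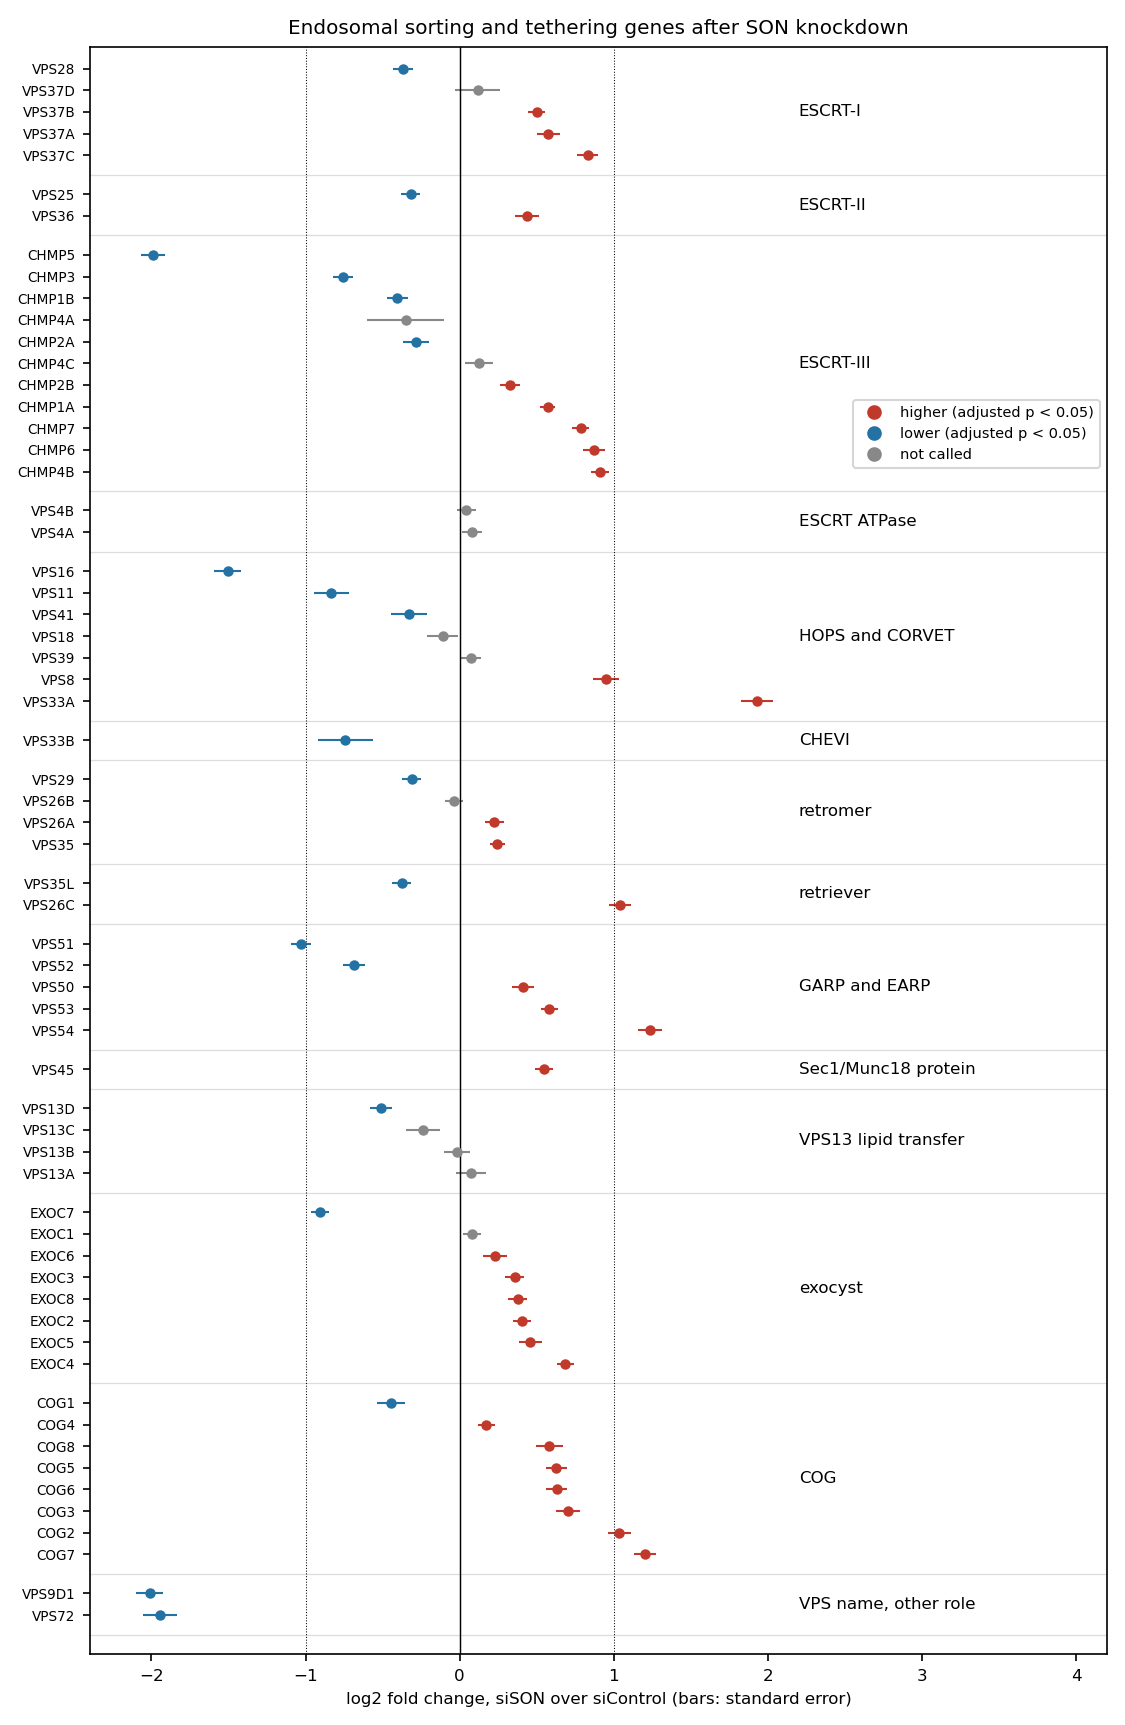
Log2 fold change (siSON over siControl, horizontal axis) of each of the 62 genes with its standard error, grouped by complex; red genes were higher, blue lower and grey not called at an adjusted p of 0.05, and dotted lines mark 2-fold. Within almost every complex with several subunits some lie right of 0 and others left; VPS33A lies farthest right at 1.93 and VPS9D1 farthest left at -2.01, and with library size alone or cyclic loess VPS37D, CHMP4A, CHMP4C, VPS4A, VPS4B, VPS39, VPS26A, VPS35, VPS13A, EXOC1 and COG4 change side under at least 1 of them.

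The 10 genes that changed at least 2-fold came from 6 groups: HOPS, GARP/EARP, COG, retriever, ESCRT-III and the pair of VPS-named genes with other roles. VPS9D1, which carries a VPS9 domain of the kind found in activators of Rab GTPases (ENSG00000075399; GRCh38 chromosome 16, 89707134-89720986, minus strand, 15 exons), was measured at 33.2, 33.0 and 30.8 CPM in the siControl libraries and at 8.85, 7.89 and 7.28 CPM in the siSON libraries. Every siSON library was below every siControl library, at 24.8% of control on average (log2 fold change -2.01, SE 0.09, edgeR adjusted p = 9.78e-09). Of its exon bases, 15.2% are shared with VPS9D1-AS1 or ZNF276 on the other strand, and the strand setting of the counting is not given in the sources used here. VPS72, a subunit of chromatin-remodelling complexes that deposit the histone variant H2A.Z and no membrane sorting protein in animals (ENSG00000163159; GRCh38 chromosome 1, 151169987-151195321, minus strand, 5 exons), was measured at 26.2, 29.3 and 28.0 CPM in the siControl libraries and at 6.05, 8.22 and 7.51 CPM in the siSON libraries. It fell to 26.1% of control with no overlap of the groups (log2 fold change -1.94, SE 0.11, edgeR adjusted p = 5.06e-08). TMOD4 and SCNM1 share 40.5% of its exon bases, so its level is uncertain.

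**Figure D2:**
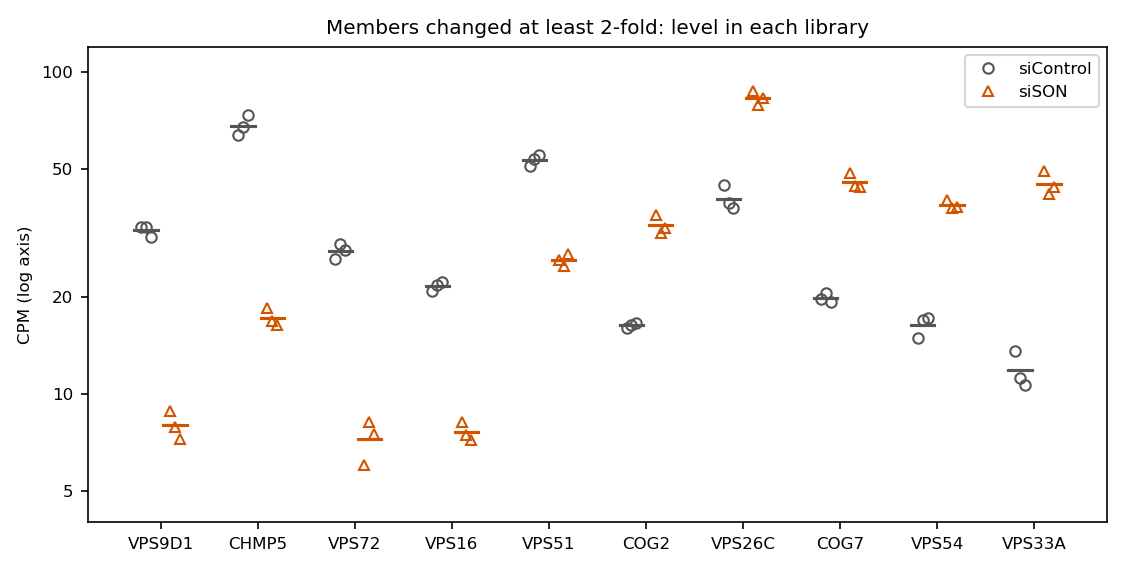
CPM on a log axis for the 10 genes changed at least 2-fold, with 1 symbol per library (circles siControl, triangles siSON) and a bar at each group mean. For each gene the 3 siSON libraries lie apart from the 3 siControl libraries, from VPS9D1 (32.3 to 8.01 CPM) to VPS33A (11.9 to 45.2 CPM).

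Among the 20 ESCRT genes, 9 rose, 6 fell and 5 were not called, with a median log2 fold change of 0.12. In ESCRT-I, which binds ubiquitinated cargo and recruits the later complexes, 3 of 5 rose and VPS28 fell. VPS37C (ENSG00000167987; GRCh38 chromosome 11, 61130256-61161617, minus strand, 5 exons), 1 of 4 interchangeable VPS37 subunits, was measured at 19.4, 20.8 and 21.1 CPM in the siControl libraries and at 36.5, 35.2 and 37.1 CPM in the siSON libraries. Its siSON libraries were all above its siControl libraries (log2 fold change 0.83, SE 0.069, edgeR adjusted p = 8.58e-07). VPS37A and VPS37B rose less, by 0.58 and 0.50 on the log2 scale, and VPS37D, measured at only 4.77 and 5.18 CPM on average, had a log2 fold change of 0.12 that was not called (0.44 and called higher with cyclic loess, limma adjusted p = 0.0417). VPS28 (ENSG00000160948), the subunit that links ESCRT-I to ESCRT-II, was measured at 43.1, 40.7 and 39.5 CPM in the siControl libraries and at 30.5, 32.7 and 32.3 CPM in the siSON libraries. The groups did not overlap, and the fall was small (log2 fold change -0.37, SE 0.066, edgeR adjusted p = 0.000395). Of the exon bases of VPS37B, 36.0% are shared with unnamed genes on both strands. In ESCRT-II, VPS36 (ENSG00000136100), whose GLUE domain binds ubiquitin and phosphoinositides, was measured at 27.5, 27.5 and 25.4 CPM in the siControl libraries and at 38.9, 36.4 and 33.5 CPM in the siSON libraries. It rose in every siSON library (log2 fold change 0.44, SE 0.076, edgeR adjusted p = 0.00033). VPS25 (ENSG00000131475), the ESCRT-II arm that contacts ESCRT-III, was measured at 52.5, 50.9 and 51.6 CPM in the siControl libraries and at 44.1, 39.9 and 40.5 CPM in the siSON libraries. It lay lower in every siSON library (log2 fold change -0.32, SE 0.063, edgeR adjusted p = 0.000809).

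The 11 ESCRT-III genes encode the filament subunits that constrict membrane necks; 5 rose, 4 fell and CHMP4A and CHMP4C were not called, CHMP4C being called higher with cyclic loess (0.27, limma adjusted p = 0.0326). CHMP5 (ENSG00000086065; GRCh38 chromosome 9, 33264879-33282069, plus strand, 8 exons), which regulates filament disassembly together with the VPS4 cofactor VTA1, was measured at 63.8, 67.8 and 73.7 CPM in the siControl libraries and at 18.5, 16.8 and 16.4 CPM in the siSON libraries. It fell to 25.2% of control with no overlap (log2 fold change -1.99, SE 0.078, edgeR adjusted p = 4.35e-09), and no other annotated gene shares its exon bases. CHMP4B (ENSG00000101421; GRCh38 chromosome 20, 33811304-33854366, plus strand, 5 exons), the main filament-forming subunit, was measured at 129, 120.1 and 118 CPM in the siControl libraries and at 243, 218 and 230.3 CPM in the siSON libraries. Its groups did not overlap (log2 fold change 0.91, SE 0.059, edgeR adjusted p = 1.22e-07). Per kilobase of exon, CHMP4B was at 74.5 CPM per kb in siControl and 139.9 in siSON, the highest level of the 62 genes in both groups, whereas CHMP4A was at 0.467 CPM per kb in siControl, the lowest. Of the exon bases of CHMP4A, however, 68.8% are shared with unnamed genes on the same strand, so its level and rank are uncertain. CHMP6, which starts filament assembly from ESCRT-II, rose by 0.87 on the log2 scale, CHMP7, which recruits ESCRT-III to the nuclear envelope, by 0.79, and CHMP1A by 0.57. Of the exon bases of CHMP6, 21.5% are shared with unnamed genes. CHMP3, a cap subunit of the filament, fell by 0.76 on the log2 scale; it overlaps the readthrough gene RNF103-CHMP3 on the same strand, so part of its count is uncertain. CHMP1B, a gene with a single exon, fell by 0.40. CHMP2A and CHMP2B, alternative subunits that act with CHMP3, moved in opposite directions by small amounts (-0.28 and 0.33). The fall of CHMP2A was not called without siSON replicate 2 or 3 (edgeR adjusted p = 0.0545 and 0.0535), and the rise of CHMP2B was not called with library size alone or cyclic loess (edgeR adjusted p = 0.0873, limma adjusted p = 0.105).

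VPS4A and VPS4B encode the ATPase that takes the filament apart, the step that ESCRT function depends on for energy. VPS4A (ENSG00000132612) was measured at 46.8, 48.9 and 48.8 CPM in the siControl libraries and at 47.6, 52.1 and 53.1 CPM in the siSON libraries. The groups overlapped, and neither it nor VPS4B, at means of 87.2 and 90.0 CPM, was called (log2 fold changes 0.08 and 0.044, SE 0.064 and 0.063, edgeR adjusted p = 0.277 and 0.549). The count of 0 called was also 0 at an unadjusted p of 0.05 in edgeR and 0 in DESeq2 and limma-voom, but with library size alone VPS4B was called lower (-0.15, edgeR adjusted p = 0.0419). Of the exon bases of VPS4A, 36.4% are shared with COG8 on the other strand or an unnamed gene.

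HOPS and CORVET share a core of VPS11, VPS16, VPS18 and VPS33A; HOPS adds VPS39 and VPS41, and CORVET adds VPS8 and TGFBRAP1. Of the 7 genes measured here, VPS33A and VPS8 rose, and VPS11, VPS16 and VPS41 fell. VPS33A (ENSG00000139719; GRCh38 chromosome 12, 122229564-122266521, minus strand, 13 exons), the Sec1/Munc18 protein of both complexes that guides SNARE assembly, was measured at 13.7, 11.2 and 10.7 CPM in the siControl libraries and at 49.3, 42.1 and 44.2 CPM in the siSON libraries. All siSON values were well above the highest siControl value, and the mean was 381% of control, the greatest rise of the 62 genes (log2 fold change 1.93, SE 0.10, edgeR adjusted p = 2.95e-08). An unnamed gene on the same strand shares 21.5% of its exon bases. VPS16 (ENSG00000215305; GRCh38 chromosome 20, 2840703-2866732, plus strand, 24 exons), the subunit that VPS33A binds, was measured at 20.9, 21.9 and 22.4 CPM in the siControl libraries and at 8.22, 7.5 and 7.22 CPM in the siSON libraries. It moved the other way, to 35.2% of control with no overlap (log2 fold change -1.51, SE 0.086, edgeR adjusted p = 5.03e-08); it shares 16.6% of its exon bases with PTPRA and PCED1A. VPS11, a core subunit with a RING domain, fell from 37.6 ± 3.14 to 21.1 ± 3.70 CPM (SD, n = 3; log2 fold change -0.83, SE 0.12, edgeR adjusted p = 6.01e-05). VPS8, the CORVET subunit that binds the early endosome GTPase Rab5, rose from 30.7 ± 1.76 to 59.3 ± 6.24 CPM (SD, n = 3; log2 fold change 0.95, SE 0.083, edgeR adjusted p = 1.35e-06). VPS18 and VPS39 were not called (-0.11 and 0.075); with library size alone VPS18 was called lower (-0.31, edgeR adjusted p = 0.0144), which makes the 7 genes 2 higher and 4 lower. VPS41, the HOPS subunit that binds membranes and cargo, had overlapping groups and a log2 fold change of -0.33 (edgeR adjusted p = 0.0271) that was not called without siControl replicate 1, siSON replicate 2 or siSON replicate 3 (edgeR adjusted p of 0.0640, 0.114 and 0.103). With the replicate number as a block, VPS41 was called lower (-0.34, edgeR adjusted p = 0.000119). VPS33B (ENSG00000184056; GRCh38 chromosome 15, 90998416-91022603, minus strand, 23 exons), the paralog of VPS33A that works with VIPAS39 in another tether called CHEVI, was measured at 2.19, 2.15 and 1.85 CPM in the siControl libraries and at 1.27, 1.18 and 1.24 CPM in the siSON libraries. It was lower in each siSON library, at a low level in both groups (log2 fold change -0.74, SE 0.18, edgeR adjusted p = 0.0029), and 52.1% of its exon bases are shared with an unnamed gene on the same strand.

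The differences of the 4 retromer genes were small. VPS35 (ENSG00000069329; GRCh38 chromosome 16, 46656132-46689518, minus strand, 17 exons), the scaffold of the trimer, was measured at 168, 167 and 172 CPM in the siControl libraries and at 209, 194 and 197 CPM in the siSON libraries. The groups did not overlap, but the difference was under 1.2-fold (log2 fold change 0.24, SE 0.05, edgeR adjusted p = 0.00106), and it was not called with library size alone (0.046, edgeR adjusted p = 0.406) and turned to -0.066 with cyclic loess. VPS29 (ENSG00000111237), which binds retromer regulators such as TBC1D5, was measured at 104, 107 and 106 CPM in the siControl libraries and at 78.2, 87.7 and 89.8 CPM in the siSON libraries. Its siSON libraries were all lower (log2 fold change -0.31, SE 0.062, edgeR adjusted p = 0.000815). VPS26A, which binds sorting nexins and cargo, had a log2 fold change of 0.22 (edgeR adjusted p = 0.00775) that was not called with library size alone (edgeR adjusted p = 0.696) or without siControl replicate 2 (0.0609) and turned to -0.059 with cyclic loess; its paralog VPS26B was at -0.039 and not called. VPS26B was called lower with library size alone (-0.24, edgeR adjusted p = 0.00477) and cyclic loess (-0.21, limma adjusted p = 0.0269), so that retromer, with 2 genes higher and 1 lower in the main analysis, had 0 higher and 2 lower under both.

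Retriever uses VPS29 together with VPS26C and VPS35L to recycle integrins and other cargo that SNX17 selects, and its own subunits moved apart. VPS26C (ENSG00000157538; GRCh38 chromosome 21, 37223420-37267919, minus strand, 8 exons) was measured at 44.6, 39.3 and 37.9 CPM in the siControl libraries and at 87.5, 79.5 and 83.5 CPM in the siSON libraries. It rose in every siSON library to 206% of control (log2 fold change 1.04, SE 0.073, edgeR adjusted p = 2.29e-07). VPS35L (ENSG00000103544; GRCh38 chromosome 16, 19555240-19706793, plus strand, 31 exons), the scaffold, was measured at 76.5, 72.1 and 72.0 CPM in the siControl libraries and at 58.6, 53.7 and 57.6 CPM in the siSON libraries. Each siSON value was below the lowest siControl value (log2 fold change -0.38, SE 0.06, edgeR adjusted p = 0.000156).

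GARP, which returns vesicles from endosomes to the trans-Golgi, holds VPS51, VPS52, VPS53 and VPS54, and EARP holds VPS50 in place of VPS54. All 5 genes were called, beside 71.7% of all genes tested: VPS54, VPS53 and VPS50 rose, and VPS51 and VPS52 fell. VPS54 (ENSG00000143952; GRCh38 chromosome 2, 63892146-64019072, minus strand, 23 exons), the subunit that makes the complex GARP, was measured at 15, 17.0 and 17.3 CPM in the siControl libraries and at 40.1, 38.0 and 38.1 CPM in the siSON libraries. Its groups lay far apart, at 236% of control (log2 fold change 1.24, SE 0.077, edgeR adjusted p = 9.02e-08). VPS51 (ENSG00000149823; GRCh38 chromosome 11, 65089324-65111860, plus strand, 10 exons), shared by both complexes, was measured at 51.2, 53.7 and 55.3 CPM in the siControl libraries and at 26.2, 25.1 and 27.2 CPM in the siSON libraries. It fell to 49.0% of control, again without overlap (log2 fold change -1.03, SE 0.065, edgeR adjusted p = 1.05e-07), and shares 11.7% of its exon bases with TM7SF2 and other genes. VPS52 fell from 44.6 ± 2.71 to 27.7 ± 1.27 CPM and VPS53 rose from 59.4 ± 0.813 to 88.8 ± 3.48 CPM (SD, n = 3). VPS50, the EARP subunit, rose by 0.41 on the log2 scale where VPS54 rose by 1.24. VPS45 (ENSG00000136631), a Sec1/Munc18 protein of endosomal SNAREs, was measured at 45.6, 48.0 and 49.4 CPM in the siControl libraries and at 72.0, 68.4 and 68.2 CPM in the siSON libraries. The siSON values were all higher (log2 fold change 0.55, SE 0.059, edgeR adjusted p = 7.67e-06).

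The 4 VPS13 genes encode bridge-like proteins that move lipids between membranes, and 1 of them was called. VPS13D (ENSG00000048707; GRCh38 chromosome 1, 12230030-12512047, plus strand, 70 exons), which acts at mitochondria and peroxisomes, was measured at 40.7, 44.0 and 42.1 CPM in the siControl libraries and at 27.5, 30.0 and 31.5 CPM in the siSON libraries. It was lower in each siSON library (log2 fold change -0.51, SE 0.072, edgeR adjusted p = 5.99e-05). VPS13A was measured at 62.7, 62.2 and 49.8 CPM in the siControl libraries and at 64.2, 64.6 and 55.2 CPM in the siSON libraries. Those groups overlapped and it was not called (log2 fold change 0.075, edgeR adjusted p = 0.504). VPS13B, a Golgi protein, was at 33.8 ± 3.61 and 33.4 ± 1.01 CPM (SD, n = 3) and was not called, except as lower with library size alone (-0.22, edgeR adjusted p = 0.0384). VPS13C, found at contacts of the endoplasmic reticulum with late endosomes, had a log2 fold change of -0.24 (edgeR adjusted p = 0.0774); it was called lower in 7 of 14 alternatives, among them the replicate number as a block (-0.23, edgeR adjusted p = 0.00428), library size alone (-0.44, edgeR adjusted p = 0.00432) and DESeq2 (DESeq2 adjusted p = 0.0481).

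The exocyst genes moved mostly together: EXOC2, EXOC3, EXOC4, EXOC5, EXOC6 and EXOC8 rose, EXOC7 fell and EXOC1 was not called. Of all genes tested, 71.7% were called, 35.2% as higher, and of protein-coding genes 77.4% were called, 40.3% as higher. The groups did not overlap for any of the 8 exocyst genes, beside 75.1% of all genes tested. With library size alone or cyclic loess 5 rose, EXOC6 not being called with the former and EXOC5 not with the latter, and the log2 fold change of EXOC1 turned below 0 under both. EXOC4 (ENSG00000131558; GRCh38 chromosome 7, 133253073-134066589, plus strand, 18 exons), a subunit of the exocyst subcomplex with EXOC1, EXOC2 and EXOC3, was measured at 68.6, 69.7 and 73.6 CPM in the siControl libraries and at 117, 110.2 and 114 CPM in the siSON libraries. Its siSON libraries were all at over 1.5 times the control mean (log2 fold change 0.68, SE 0.055, edgeR adjusted p = 6.44e-07). EXOC7 (ENSG00000182473; GRCh38 chromosome 17, 76081017-76121576, minus strand, 18 exons), which binds phosphoinositides and so anchors exocyst at the plasma membrane, was measured at 174, 165 and 166 CPM in the siControl libraries and at 89.1, 94.8 and 85.8 CPM in the siSON libraries. It fell to 53.3% of control and no siSON value reached a siControl value (log2 fold change -0.91, SE 0.056, edgeR adjusted p = 8.47e-08). Of its exon bases, 28.7% are shared with ZACN or other overlapping genes. EXOC5 rose by 0.46, EXOC2, which binds the GTPase RalA, by 0.41, EXOC8, the other Ral-binding subunit and a gene with a single exon, by 0.38 and EXOC3 by 0.36 on the log2 scale. The call of EXOC6, which binds Rab GTPases, was the weakest (log2 fold change 0.23, SE 0.078, edgeR adjusted p = 0.0217), and it was lost with library size alone, with a mean count of at least 50, and without each library in turn other than siSON replicate 1 (edgeR adjusted p up to 0.744).

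The start sites of the exocyst genes are shown through EXOC4 and EXOC7, the members that rose and fell most. All 8 have a short sequence in common near at least 1 RefSeq start. RefSeq windows on GRCh38.p14 from 250 bases before to 50 bases after an annotated start were found for 47 of the 62 genes. GGAAGTG, read on the other strand as CACTTCC, a sequence bound by ETS family factors, lay on either strand in a window of all 8 exocyst genes, for EXOC6 in 1 of its 3 windows. That EXOC6 window (chr10:92830858-92831157, plus strand) lies wholly before the gene span used here, which begins at 92834713, so the match of EXOC6 is uncertain. GGAAGTG lay in windows of 3 of 7 COG genes, of 19 of the 47 genes (40.4%), of 18.6% of the 10299 protein-coding genes tested and in 11.2% of all 35116 windows. Both the subunits that rose and the one that fell carry it. Where a gene has several windows, 1 with the match is shown. The match is capitalised, each sequence reads 5′ to 3′ on the strand of the gene, and the windows are chr7:133252828-133253127 (plus strand; the match begins 92 bases before the start) and chr17:76103522-76103821 (minus strand; 204 bases before).
EXOC4: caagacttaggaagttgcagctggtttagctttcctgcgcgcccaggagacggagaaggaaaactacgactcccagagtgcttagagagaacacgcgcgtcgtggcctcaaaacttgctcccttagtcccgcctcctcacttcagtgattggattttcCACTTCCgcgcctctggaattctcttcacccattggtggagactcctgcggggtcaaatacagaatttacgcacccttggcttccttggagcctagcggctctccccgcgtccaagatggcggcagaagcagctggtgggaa
EXOC7: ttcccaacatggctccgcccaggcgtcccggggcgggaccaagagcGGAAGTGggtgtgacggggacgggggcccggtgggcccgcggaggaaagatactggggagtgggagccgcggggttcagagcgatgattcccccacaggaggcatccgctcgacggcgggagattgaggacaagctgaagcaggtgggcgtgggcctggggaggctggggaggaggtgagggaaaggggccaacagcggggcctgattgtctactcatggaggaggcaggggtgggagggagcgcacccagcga

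VPS11 and VPS26C are shown for another sequence, CACGTG, and the longer TCACGTGA that contains it, which is known from genes of lysosome biogenesis bound by TFEB; both read the same on either strand. CACGTG lay in windows of 9 of the 47 genes (19.1%), VPS11, VPS16 and VPS8 of the 5 HOPS and CORVET genes with a window among them, beside 12.4% of protein-coding genes tested and 7.26% of all windows. TCACGTGA lay in windows of VPS11, VPS26C and CHMP4A (6.38% of the 47 genes), beside 2.25% of protein-coding genes tested and 0.980% of all windows. VPS11 fell, VPS26C rose and CHMP4A was not called. A match is a description of these letters and was not tested as a binding site. Capitals mark TCACGTGA, and the windows are chr11:119067568-119067867 (plus strand; TCACGTGA begins 35 bases before the start) and chr21:37267285-37267584 (minus strand; 82 bases before).
VPS11: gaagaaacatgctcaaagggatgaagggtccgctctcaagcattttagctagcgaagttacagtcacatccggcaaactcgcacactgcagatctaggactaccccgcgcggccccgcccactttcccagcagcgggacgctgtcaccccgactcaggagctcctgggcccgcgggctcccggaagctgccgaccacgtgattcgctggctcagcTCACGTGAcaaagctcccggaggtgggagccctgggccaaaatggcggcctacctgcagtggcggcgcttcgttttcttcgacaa
VPS26C: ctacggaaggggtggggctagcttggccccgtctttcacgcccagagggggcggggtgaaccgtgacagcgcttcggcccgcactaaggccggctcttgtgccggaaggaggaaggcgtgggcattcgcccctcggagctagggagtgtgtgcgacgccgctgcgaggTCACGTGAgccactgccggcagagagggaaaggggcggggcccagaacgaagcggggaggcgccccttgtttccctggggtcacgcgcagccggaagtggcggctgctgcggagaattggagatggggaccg

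All 8 COG genes were called, beside 71.7% of all genes tested and 77.4% of protein-coding genes. Of the 8, 7 were higher, where 35.2% of all genes and 40.3% of protein-coding genes were. COG1 was lower, where 36.5% of all genes and 37.1% of protein-coding genes were. The median log2 fold change of the 8 was 0.63. With library size alone or cyclic loess 6 were higher, because COG4 (0.17) turned to -0.02 under both. COG7 (ENSG00000168434; GRCh38 chromosome 16, 23388493-23453180, minus strand, 17 exons), in the lobe that joins COG5 to COG8, was measured at 19.8, 20.6 and 19.3 CPM in the siControl libraries and at 48.9, 44.3 and 44.0 CPM in the siSON libraries. Every siSON library was at more than 2 times the control mean (log2 fold change 1.20, SE 0.071, edgeR adjusted p = 6.14e-08). COG2 (ENSG00000135775; GRCh38 chromosome 1, 230642489-230693982, plus strand, 18 exons), in the lobe of COG1 to COG4, was measured at 16.1, 16.4 and 16.7 CPM in the siControl libraries and at 36.1, 31.8 and 33.0 CPM in the siSON libraries. The siSON values lay above the siControl values without overlap (log2 fold change 1.04, SE 0.075, edgeR adjusted p = 2.81e-07). COG1 (ENSG00000166685; GRCh38 chromosome 17, 73192632-73208507, plus strand, 14 exons), which links the lobes, was measured at 37.2, 33.4 and 32.7 CPM in the siControl libraries and at 28.4, 24.8 and 22.5 CPM in the siSON libraries. It was the sole COG subunit that fell (log2 fold change -0.45, SE 0.093, edgeR adjusted p = 0.00115), and 26.1% of its exon bases are shared with FAM104A or unnamed genes. COG3, COG5, COG6 and COG8 rose by 0.71, 0.63, 0.63 and 0.58 on the log2 scale; COG8 shares 48.0% of its exon bases, with PDF among others. The smallest change was that of COG4 (log2 fold change 0.17, SE 0.053, edgeR adjusted p = 0.0114), which was not called in the alternatives with a mean count of at least 50 or without siControl replicate 1 or 2 (edgeR adjusted p of 0.0536, 0.0680 and 0.0624).

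**Figure D3:**
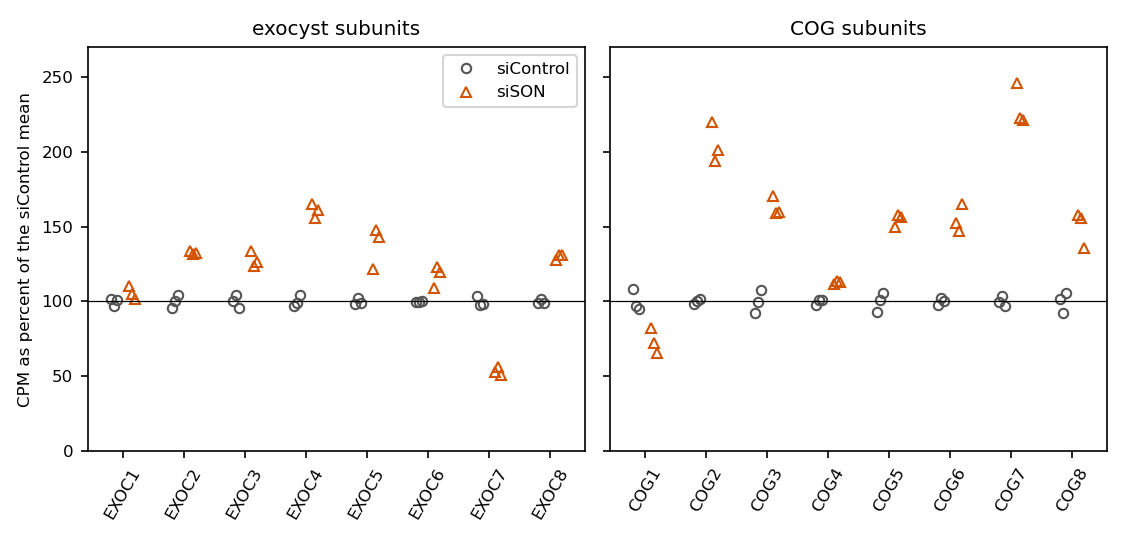
CPM of each exocyst (left) and COG (right) subunit as a percent of its siControl mean, with 1 symbol per library (circles siControl, triangles siSON) and a line at 100. EXOC7 and COG1 are the subunits whose siSON libraries lie below 100 (means 53.3% and 73.3%), and COG7 (229.9%) and COG2 (205%) lie highest; COG4 (113%) and EXOC1 (106%), nearest 100, change side under library size alone and cyclic loess.

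Paralogs were compared within each library as the log2 ratio of their CPM after adding 0.5 CPM to each. Apart from VPS33A and VPS33B, which work in different tethers, the paired genes can occupy the same place in a complex. The scaling of a library cancels in such a ratio except through the added 0.5 CPM. That addition weighs most for CHMP4A (means 1.13 CPM in siControl and 0.88 CPM in siSON) and VPS33B (2.06 and 1.23 CPM). Both also share much of their exon bases with other genes (68.8% and 52.1%), so their ratios are uncertain. With 3 libraries against 3, the smallest p a 2-sided exact permutation test can give is 0.1, so no pair could pass 0.05. For VPS33A over VPS33B the log2 ratio was 2.39, 2.14 and 2.26 in siControl and 4.81, 4.66 and 4.68 in siSON, a difference of 2.45 (exact permutation p = 0.1, 0.133 adjusted over 8 pairs). The log2 ratio of CHMP1A to CHMP1B was higher in siSON by 0.97, that of CHMP4B to CHMP4C by 0.78 and that of VPS26A to VPS26B by 0.26, and for CHMP4A to CHMP4B the difference was -1.14, each without overlap of the groups (exact permutation p = 0.1, 0.133 adjusted). CHMP2A was above CHMP2B in each siControl library (log2 ratios 0.346, 0.215 and 0.370) and below it in each siSON library (-0.204, -0.343 and -0.337), again with an exact permutation p = 0.1. CPM does not correct for the lengths of the pair, so the change of sign is a change of balance, not of rank. The ratios of VPS4A to VPS4B and of VPS37A to VPS37B differed by 0.037 and 0.078, within the spread of the libraries (exact permutation p = 0.8 for both).

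**Figure D4:**
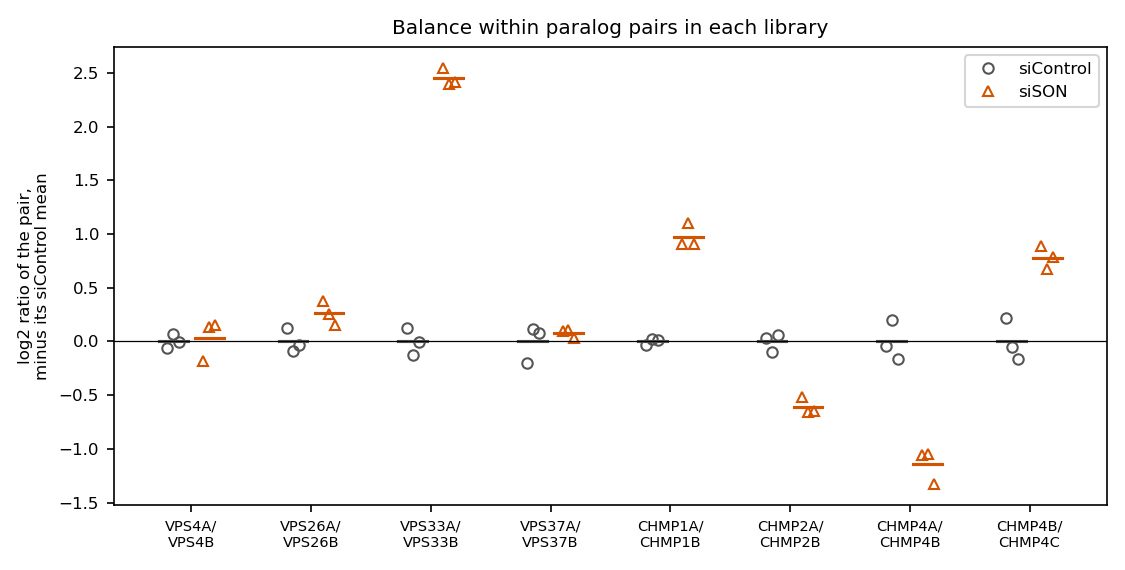
Log2 ratio of CPM within each of 8 paralog pairs, minus the pair's siControl mean, with 1 symbol per library (circles siControl, triangles siSON) and a bar at each group mean. VPS33A/VPS33B lies farthest above 0 in siSON (2.45), CHMP4A/CHMP4B farthest below (-1.14), and the groups of VPS4A/VPS4B and VPS37A/VPS37B overlap.

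Genes known to act with these complexes were taken from 4 lists, and 84 of 86 passed the filter, HOOK1 and EXOC3L2 being too low; 53 rose, 23 fell and 8 were not called (46 rose and 25 fell with library size alone, 42 and 21 with cyclic loess). Of the 84, 90.5% were called, beside 71.7% of all genes tested (35.2% higher, 36.5% lower) and 77.4% of protein-coding genes (40.3% higher, 37.1% lower). The lists were chosen with earlier results of these data known, which may bear on that share, and the difference was not tested. Their median log2 fold change was 0.39, beside -0.03 over all genes tested. With cyclic loess it was 0.26, beside 0.038, and with library size alone 0.20, beside -0.22. Of 19 ESCRT partners, 12 rose and 6 fell. MVB12A, an ESCRT-I subunit that binds ubiquitin, fell from 20.3 ± 2.0 to 1.55 ± 0.274 CPM (SD, n = 3; log2 fold change -3.71, SE 0.14, edgeR adjusted p = 3.31e-09), and CC2D1A, which binds CHMP4 proteins, fell from 42.3 ± 1.17 to 16.5 ± 2.55 CPM (log2 fold change -1.36, SE 0.10, edgeR adjusted p = 4.1e-07). Of 28 partners of retromer, retriever and the actin-nucleating WASH complex, 17 rose and 7 fell (13 and 8 with library size alone). COMMD4, a subunit of the CCC complex that works with retriever, fell from 75.0 ± 5.22 to 18.2 ± 1.05 CPM (log2 fold change -2.05, SE 0.075, edgeR adjusted p = 3.2e-09), and TBC1D5, the Rab7 GTPase-activating protein bound by retromer, rose from 31.5 ± 2.24 to 85.8 ± 3.67 CPM (log2 fold change 1.45, SE 0.069, edgeR adjusted p = 1.4e-08).

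Of 21 partners of HOPS, CORVET and the phosphatidylinositol 3-kinase complexes, 12 rose and 6 fell (10 and 7 with library size alone, 7 and 4 with cyclic loess). HOOK2, a dynein adaptor, fell from 11.4 ± 0.616 to 3.92 ± 0.942 CPM (log2 fold change -1.53, SE 0.15, edgeR adjusted p = 3.57e-06), and RILP, which joins Rab7 to dynein and HOPS, fell from 2.01 ± 0.211 to 0.709 ± 0.244 CPM (log2 fold change -1.52, SE 0.26, edgeR adjusted p = 0.000279). All 16 tested partners of exocyst and the Golgi tethers were called, 12 higher and 4 lower (11 and 4 with library size alone, 10 and 4 with cyclic loess), beside the 71.7% of all genes and 77.4% of protein-coding genes called. EXOC3L1 and EXOC3L4, relatives of EXOC3, had the lowest log2 fold changes of the list. EXOC3L1 had 17, 17 and 39 counts in siControl and 0 in each siSON library, at least 6.12-fold lower against a floor of 3 counts per library. EXOC3L4 had 20, 19 and 31 counts in siControl and 0 in each siSON library, at least 5.92-fold lower against the same floor. The median log2 fold change of that list was 0.51, also with these genes at their bounds.

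In several complexes, though not in all, the subunits that fell were those with short introns, as read from the reference transcript of each gene in GENCODE release 29. The median intron was 302 bp long in EXOC7, 284 in VPS52, 365 in VPS51 and 485 in COG1, the shortest in exocyst, GARP/EARP and COG respectively, and these were the subunits of those complexes that fell. VPS16 (130 bp) and VPS11 (400 bp) had the shortest in HOPS and CORVET and fell, where VPS41 (2411 bp) also fell, as did VPS28 (253 bp) in ESCRT-I and VPS25 (767 bp) in ESCRT-II. Other complexes went the other way: VPS35L (3052.5 bp) fell while VPS26C (2027 bp) rose in retriever, and VPS29 (2780 bp) fell while VPS35 (1199 bp) rose in retromer. VPS13D (2322 bp) fell while VPS13A (1320 bp) was not called. ESCRT-III was mixed: CHMP2A, with the shortest median intron (108 bp), fell, and CHMP4A (412 bp) was not called. CHMP5 (1738 bp) and CHMP3 (12854 bp) also fell, while CHMP6 (677 bp) rose. The median over lower genes with introns was 499 bp (18 genes) and over higher genes 2301.5 bp (30 genes); over all protein-coding genes tested it was 1290.5 bp for lower and 2188.5 bp for higher genes. Spearman's rho of log2 fold change with median intron length was 0.42 across the 60 genes with introns, beside 0.25 across 12699 protein-coding genes. These are descriptions across genes, which are not independent replicates and share the same 6 libraries. With GC content of the transcript, rho was -0.18 across the 62 genes and -0.21 across 13003 protein-coding genes.

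At the ends of that order, a choice of 10 genes made after the values were seen, CHMP2A, VPS16, VPS28, VPS52, EXOC7, VPS9D1, VPS51, VPS11 and COG1 were lower and CHMP4A was not called (median introns of 108 to 485 bp). Of the 2058 protein-coding genes with median introns up to 485 bp, 61.1% were lower and 22.7% higher. Of the 10 genes with the longest median introns (3195.5 to 21794 bp), COG6, COG7, CHMP2B, EXOC2, VPS53, EXOC6, COG5 and EXOC4 were higher, CHMP3 was lower and VPS13B was not called. Of the 3668 protein-coding genes with median introns at least as long, 45.9% were higher and 27.0% lower. VPS72, among the genes that fell most, has a median intron of 2533 bp. Its reference transcript is only 689 bases long, while all annotated exons of the gene cover 4545 bases, so that length is uncertain. Gene counts do not show how the introns were removed, and splicing was not measured here.

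**Figure D5:**
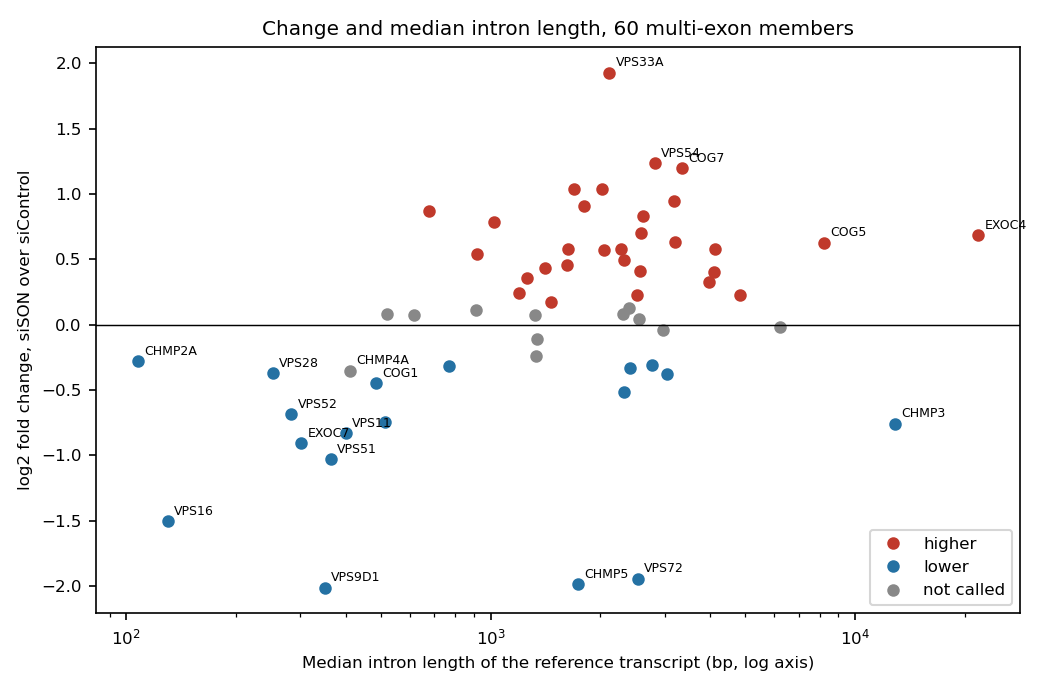
Log2 fold change (siSON over siControl, vertical axis) against the median intron length of the reference transcript (bp, log axis) for the 60 genes with introns; red genes were higher, blue lower and grey not called. Blue points gather at the left, where VPS16 (130 bp) and VPS9D1 (350.5 bp) lie low, and red points toward the right, where EXOC4 (21794 bp) is farthest; CHMP3 (12854 bp) lies low at the right.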

How the data were processed

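The table the authors deposited holds raw whole-number counts of reads for each gene in each of the 6 libraries, without pooling. Per the submitters' processing notes, the work used the hg38 build, cutadapt 1.16, STAR 2.5.2a, featureCounts 1.6.2 and DESeq2 1.28.1; whether strand was used and how reads mapping to several places were handled are not given in the sources used here. Without that, counts of genes that overlap others or have pseudogenes are uncertain: 10 of the 62 genes share over 20% of their exon bases, and 9 have a pseudogene named after them. All 58735 gene identifiers matched GENCODE release 29 (GRCh38), as did 99.51% of names, so positions, exons and introns came from it; reference transcripts were the protein-coding transcripts ranked by APPRIS level and then length.

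The comparison was run in edgeR 4.0.16 (R 4.3.3) with filterByExpr (minimum count 10), TMM (trimmed mean of M values) scaling, a robust quasi-likelihood fit of the group alone on all 6 libraries, and Benjamini-Hochberg adjustment over the 16591 genes tested. The SE of a log2 fold change is its size over the square root of F. CPM are counts per 1000000 of the TMM-scaled library size. Scripts were tested on simulated data. Replicates of a group were not duplicates (chi-square per degree of freedom 6.94 to 25.2). Pairs with replicate 1 were at 18.6 to 25.2, while replicates 2 and 3 were at 7.24 in siControl and 6.94 in siSON. Replicate 1 thus stood apart in both groups, and the cause was not tested. The titles give both groups the numbers 1, 2 and 3. Deviations from the group means correlated at 0.323, 0.129 and 0.230 between same-numbered libraries and at -0.247 to 0.0603 between others. The numbers were therefore taken to pair the libraries, although no label says what a number stands for. The main fit and the permutation tests ignored the number, and a fit with the number as a block was an alternative. Others were DESeq2 1.42.0, limma-voom (limma 3.58.1), relative log expression (RLE) factors, library size alone, cyclic loess, no filter, a mean count of at least 50, and each library left out.

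Values per library are given for genes called with at least a 2-fold change and, in each complex, for the gene with the smallest adjusted p in each direction; the other genes are given by log2 fold change, mean or range. From each partner list the pair of called genes with the largest absolute log2 fold change is named. The genes and lists were chosen with earlier results of these data known. Depth intervals and floors cover counting error only.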

Additional observations from a re-analysis of the deposited data

How the results depend on the processing

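Of the 62 genes, 42 kept their direction and their side of the adjusted p of 0.05 under all 14 alternatives. The number called was 47 to 51 and the number changed at least 2-fold 8 to 11, with 5 higher and 5 lower in the main analysis, 3 and 7 with library size alone, 4 and 6 with cyclic loess and 3 and 5 with a mean count of at least 50. With the replicate number as a block, 51 genes were called in place of 50, and VPS13C (log2 fold change -0.23, edgeR adjusted p = 0.00428) was the only one of the 62 whose call changed. The median log2 fold change of the 62, 0.15 in the main analysis, was -0.0475 with library size alone, 0.0344 with cyclic loess and 0.0929 with a mean count of at least 50, and 0.119 to 0.196 with 1 library left out (lowest without siControl replicate 1, highest without siControl replicate 3). With library size alone the log2 fold changes turned to -0.0806 for VPS37D, -0.0719 for CHMP4C, -0.116 for VPS4A, -0.153 for VPS4B, -0.123 for VPS39, -0.122 for VPS13A, -0.117 for EXOC1 and -0.0232 for COG4. With cyclic loess they turned to 0.0845 for CHMP4A, -0.0559 for VPS4A, -0.182 for VPS4B, -0.146 for VPS39, -0.0586 for VPS26A, -0.0656 for VPS35, -0.0879 for VPS13A, -0.0652 for EXOC1 and -0.0157 for COG4. Of genes not called in the main analysis, VPS18, VPS26B, VPS13B, VPS13C and VPS4B were called lower with library size alone, and VPS26B and VPS13C were called lower and VPS37D and CHMP4C higher with cyclic loess. With a mean count of at least 50 VPS4B turned to -0.0124. With 1 library left out, the range crossed 0 for VPS37D (-0.0072 to 0.226), VPS4B (-0.006 to 0.0882), VPS26B (-0.0914 to 0.0049), VPS13A (-0.035 to 0.157) and VPS13B (-0.113 to 0.0127), and for the paralog ratio VPS4A/VPS4B (-0.0231 to 0.145) and the paralog ratio VPS37A/VPS37B (-0.0234 to 0.138). Library size alone shifts all log2 fold changes together by construction; for the other changes the cause was not tested. With 3 counts at 0.0401 to 0.0590 CPM, depth limits the genes with the lowest levels per kilobase, CHMP4A and VPS33B, most; they also share 68.8% and 52.1% of their exon bases with other genes, which makes their counts uncertain at any depth.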
